A study of Mus musculus with 7 samples.

Results

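The comparison set 3 early libraries, from mouse embryonic stem cells lit for 2, 4 and 6 h, against 3 late libraries, lit for 14, 24 and 48 h. These are 6 of the 7 libraries of the series. They were grouped by the time on their labels, and the library of 0 h was left out of the test and is given beside it. The cells were E14, an established line of that kind, kept in 2i medium, which holds them in the naive state with kinase inhibitors. Every library, that of 0 h included, carried the same cassette, in which GAVPO, a transcription activator switched on by blue light, drives Brn2 together with a red fluorescent protein. The light was an LED at 300 µW over cells in an Ibidi plate, and the age and passage of the cells and the number of clones are not given in the labels. The question was what differs in the messenger RNA of these cells between the first hours of Brn2 induction and the following days. Each time is 1 library, so the 3 libraries of a group differ in time as well as in handling, and no time has a replicate. A p-value here measures a shift between the groups against that mixed spread.

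Brn2, whose gene is Pou3f2, is a class III POU factor that binds octamer-like DNA and is known for its part in neural progenitors and in making neurons from other cells. In the embryo, neurogenesis runs through proneural basic helix-loop-helix factors such as Neurog1, which switch on Neurod1 and Insm1 and raise Notch ligands, while Notch signalling in neighbouring cells holds such factors down through Hes genes. Naive stem cells that leave 2i pass through a formative state marked by Otx2 before they take up a germ layer fate. Stress pathways run beside these programmes in cultured cells: Nrf2 raises antioxidant genes such as Hmox1, the integrated stress response raises Ddit3 and Atf3, and p53 raises Plk2 and Mdm2.

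The depth recovered from the values was between about 7060000 and 16170000 reads per library, lowest at 4 h and highest at 48 h. The deposited values act like read densities over a gene from start to end, introns included, corrected for library size, so they rank libraries for 1 gene but not genes against each other. Stem cell markers stood in every library, and none of the 9 was at 0. Their summed value ran from 1489 to 1860 in the early and from 1173 to 1377 in the late libraries. Dppa5a made up the largest part of it, at 1199, 1059 and 869.6 early and 884.5, 560 and 490.9 late. The lower late sums are therefore no fall of the markers as a set: 4 had positive and 5 negative differences, with a median of -0.03 (log2). Libraries differed in a way that follows GC content. The median deviation of the tenth of genes richest in GC was -0.17, -0.33 and 0.16 (log2) at 2, 4 and 6 h, and 0.12, -0.22 and 0.45 at 14, 24 and 48 h. The first principal component (47.2% of the variance) did not part the groups, since the score at 24 h (-3.16) lay below that at 6 h (2.05). With the GC trend removed from each library it did (43.8%), with scores of -13.1, -17.8 and -8.77 for the early and 7.18, 9.57 and 22.9 for the late libraries.

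**Figure D1:**
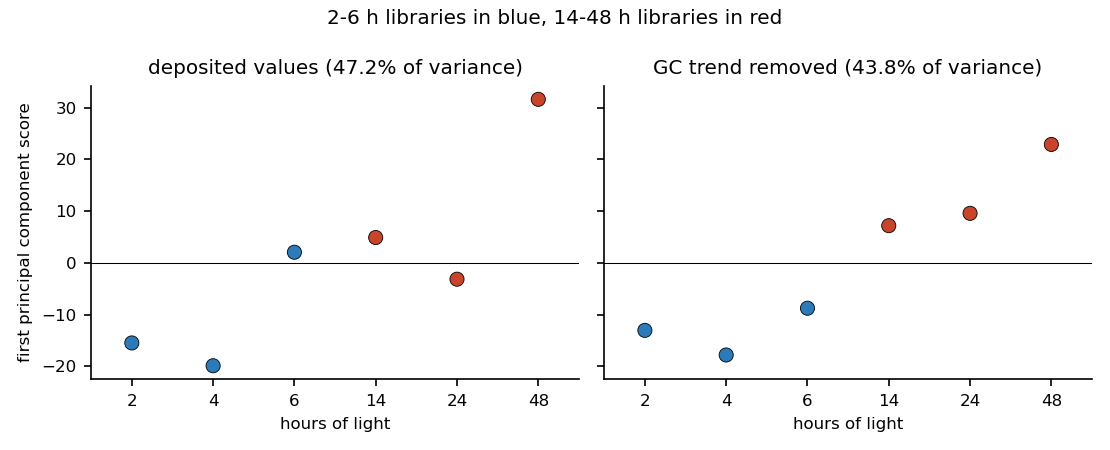
Scores of the 6 libraries on the first principal component of log2(value + 1), by hours of light, for the deposited values (left) and with the GC trend of each library removed (right); blue points are 2, 4 and 6 h, red points 14, 24 and 48 h. On the left the 24 h library (-3.16) lies below the 6 h library (2.05), and on the right the early scores end at -8.77 and the late scores begin at 7.18.

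The induced gene itself did not separate the groups. Pou3f2 stood at 77.0 at 0 h, at 36.9, 47.3 and 96.2 at 2, 4 and 6 h, and at 119, 41.3 and 7.19 at 14, 24 and 48 h. The highest and the lowest value were both late, and the difference of -0.70 ± 0.81 (log2, SE) missed the threshold (limma adjusted p = 0.812). It was 0.34 (adjusted p = 0.878) when the 48 h library was left out. The class III genes Pou3f1 and Pou3f4 had the same lowest library: Pou3f1 stood at 118, 152 and 189 early and 446, 100 and 18.0 late, and Pou3f4 at 28.8, 34.4 and 80.2 early and 55.4, 27.7 and 3.71 late. Neither passed (adjusted p = 0.839 and 0.630), and for these similar intronless genes no source used here says how reads that match several copies were handled. Nor do they say whether RNA of the cassette enters the value of Pou3f2, so the groups are groups of time under light and not of measured Brn2.

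Of 6372 genes with a mean value of at least 1 over the 6 libraries, 16 rose and 29 fell between the early and the late libraries at an adjusted p under 0.05 in a limma fit of log2(value + 1), which is 0.251% and 0.455% of the genes tested. Those that rose included neurogenic factors, both Lefty antagonists of Nodal and a fatty acid desaturase, and those that fell included the water channel Aqp3, the heme oxygenase Hmox1 and the stress factor Ddit3. Of the genes that rose 9 had an early mean under 1, and of those that fell 11 had a late mean under 1: these reached the minimum through the group where they are high, so they had to differ, and their tests are no independent support. An unadjusted p under 0.05 was found for 334 genes with higher and 353 with lower late values. The 3 late values lay above all 3 early values in 504 genes (7.91%) and below them in 465 (7.30%). With a difference of at least 1 on the log2 scale asked as well, 44 (0.691%) and 57 genes (0.895%) were left. Each of the 45 called genes kept its direction under every alternative setting in which it was tested. Their groups do not overlap, so leaving out a library or changing the pseudocount, filter or variance trend could not reverse it. The counts themselves rest on single libraries: 0 genes rose and 1 fell when the 4 h library was left out, 1 and 2 when the 24 h library was, and 5 and 21 when the 2 h library was. With 4 h left out, an unadjusted p under 0.05 was found for 334 genes, and with 24 h left out for 1021. Of the 45 calls, 1 was kept without the 4 h, 3 without the 24 h, 17 without the 2 h, 23 without the 6 h, 23 without the 14 h and 35 without the 48 h library. With the GC trend removed the counts were 41 higher (0.643%) and 81 lower (1.27%), and 43 of the 45 calls were kept. All 45 called genes had groups that did not overlap. In bulk RNA a smaller share of cells that express a gene and less of its RNA per cell cannot be told apart, here and in all that follows.

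**Figure D2:**
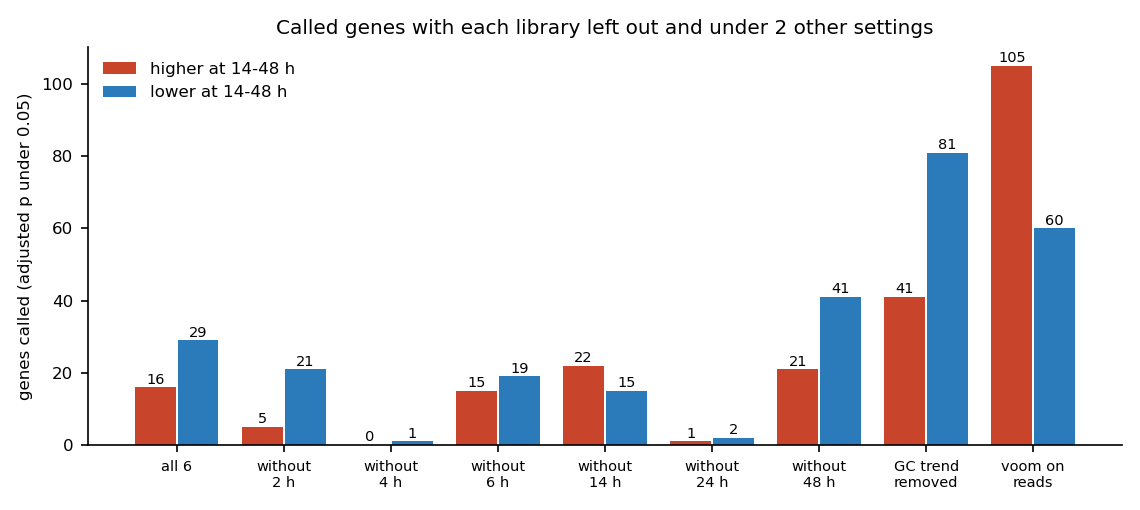
Genes called higher (red) or lower (blue) at 14 to 48 h than at 2 to 6 h with all 6 libraries, with each library left out in turn, with the GC trend removed and by limma-voom on recovered reads; the y axis counts genes with an adjusted p under 0.05. Leaving out the 4 h or the 24 h library leaves at most 2 genes in a direction, and leaving out the 48 h library leaves 21 and 41.

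**Figure D3:**
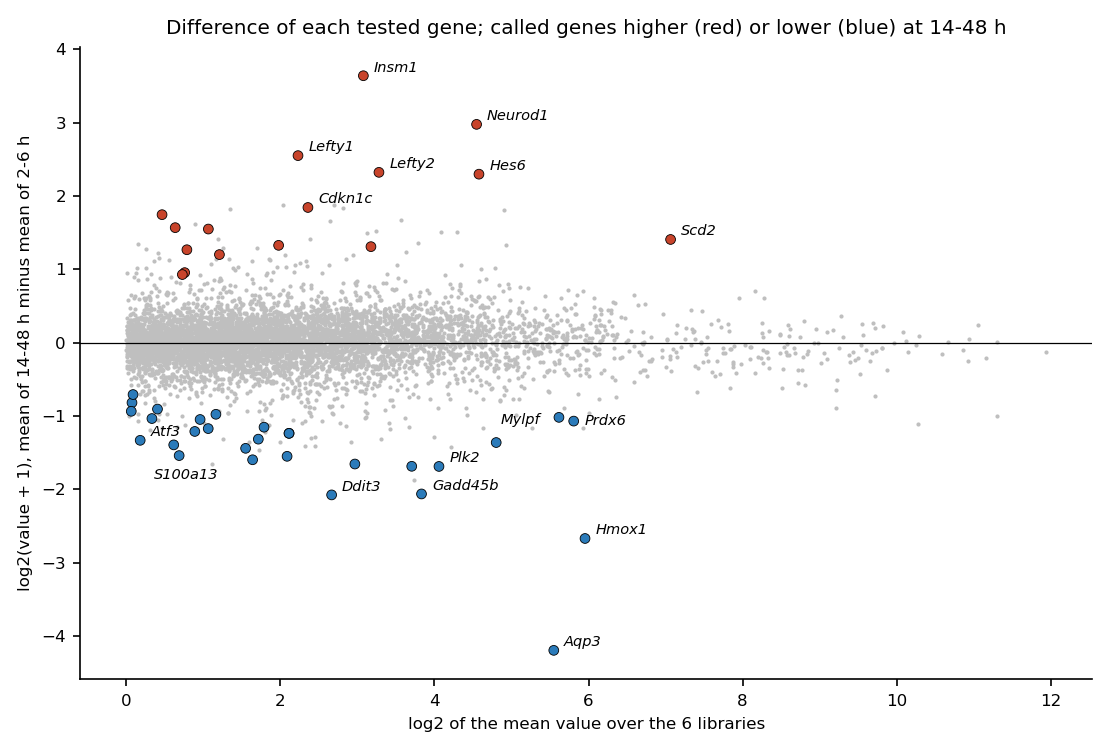
Difference between the late and early means of log2(value + 1) for each of the 6372 tested genes (y axis) against log2 of the mean value over the 6 libraries (x axis); called genes are red (16, higher late) or blue (29, lower late), and 16 of them are named. Insm1 lies at the top at 3.64 and Aqp3 at the bottom at -4.19.

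Of the genes that rose 4, Insm1, Neurod1, Hes6 and Neurog1, encode transcription factors of neuronal precursors. Insm1, a zinc-finger factor of newly born neurons and endocrine cells, stood at 0.261, 0.188 and 0.145 at 2, 4 and 6 h and at 5.6, 16.3 and 28.2 at 14, 24 and 48 h. About 6, 4 and 6 reads lay behind the early values and 158, 503 and 1412 behind the late ones, and the groups were far apart. Its difference was 3.64 ± 0.44 (log2, SE; adjusted p = 0.0170 by limma), and it was called under 14 of 18 alternatives. Neurod1, the basic helix-loop-helix factor of neuronal differentiation, stood at 1.77, 5.33 and 6.49 early and 22.4, 60.7 and 43.6 late. It was highest at 24 h and rose by 2.98 ± 0.43 (adjusted p = 0.0334, 15 of 18 alternatives), a ratio of group means of 9.31; it lies within the span of Cerkl, whose reads could be counted with it. Hes6, a Hes-family protein that opposes Hes1 and favours neurogenesis, stood at 5.66, 6.94 and 9.79 early and 46.9, 41.9 and 32.0 late. It was highest in the first late library and rose by 2.30 ± 0.24 (adjusted p = 0.00857, 15 of 18 alternatives).

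Neurog1, a proneural factor upstream of Neurod1, was at 0 at 2 and 4 h and at 0.132 at 6 h, and then at 1.65, 1.87 and 4.61. That is about 3 reads over the early libraries together and 25, 31 and 126 in the late ones. The difference of 1.75 ± 0.26 passed the test (adjusted p = 0.0334), but Neurog1, like Insm1, reached the mean of 1 only through the late libraries. The library of 0 h, at 0.242, lay above all the early ones and below all the late ones. The bases upstream of 2 genes that rose, Neurog1 and Sox12, hold the octamer ATGCAAAT, the classical site of POU factors, which is why they are printed here with that stretch in capitals. They are the 250 bases before the RefSeq start, 5′ to 3′ along the gene, in GRCm38.p6: chr13:56252181-56252430 (minus strand) for Neurog1, with the octamer 138 bases before the start, and chr2:152398047-152398296 (minus strand) for Sox12, with the octamer 195 bases before it.
Neurog1: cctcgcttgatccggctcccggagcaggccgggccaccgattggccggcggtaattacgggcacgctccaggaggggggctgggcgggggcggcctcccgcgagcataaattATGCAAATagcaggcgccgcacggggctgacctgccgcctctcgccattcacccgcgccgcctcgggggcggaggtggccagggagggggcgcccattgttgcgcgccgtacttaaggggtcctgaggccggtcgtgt
Sox12: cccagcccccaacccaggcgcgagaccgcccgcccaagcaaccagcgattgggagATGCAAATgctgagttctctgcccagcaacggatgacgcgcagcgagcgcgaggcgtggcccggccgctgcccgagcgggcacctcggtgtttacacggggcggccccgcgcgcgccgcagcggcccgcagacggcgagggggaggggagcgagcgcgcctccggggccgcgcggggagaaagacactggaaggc
On both strands of the window from 250 bases before to 50 after the start, this octamer was present in 2 of the 10 promoters found for genes that rose, in 0 of 18 for genes that fell, and in 1.66% of the 5234 found for tested genes. A match is a description of letters and not of binding.

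Of 35 members of the list of proneural and neuronal transcription factors 10 reached the mean of 1, some only through the late libraries, and were tested. Their median difference was 1.58, where all tested genes had 0.016. Of them 4 rose (Insm1, Neurod1, Hes6 and Neurog1), against 0.251% of all tested genes, and 0 fell. Of these 4, Insm1 and Neurog1 reached the mean of 1 only through the late libraries, so they had to differ. Late values lay above all early ones in 5, against 7.91% of all genes. Sox4, a SoxC factor of young neurons, was the fifth, at 1.38, 1.92 and 1.46 early and 3.50, 4.76 and 29.2 late (adjusted p = 0.267). Nhlh1, a helix-loop-helix factor of postmitotic neurons, stood at 0.124, 0.294 and 0.0964 early and at 0.124, 1.04 and 12 late (adjusted p = 0.519), and its groups met at 0.124. Of 19 members tested on recovered reads by limma-voom, 6 rose and 0 fell, against 0.838% and 0.479% of all genes in that fit.

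Structural genes of neurons were not called. Among 12 tested genes of neuronal cytoskeleton, adhesion and synapse, 0 were called in either direction, 9 had a positive difference and the median was 0.39. The groups did not overlap in 3: Ina, Crmp1 and Prph, each with higher late values, as in 7.91% of all tested genes. Prph, the filament protein peripherin, stood at 0.656, 0.896 and 1.23 early and 2.63, 1.95 and 6.04 late (difference 1.14, adjusted p = 0.152, and 0.0430 with the GC trend removed). Tubb3, the beta-tubulin of neurons, was flat but for 1 library, at 13.4, 12.4 and 13.5 early and 11.7, 10.3 and 44.6 late (adjusted p = 0.802). The summed value of the 8 neuron markers was between 16.7 and 17.9 in the early libraries and 14.3, 14.3 and 50 at 14, 24 and 48 h. Late values lay above early ones for 4 of the 8 (Map2, Dcx, Elavl4 and Syt1), against 7.91% of all tested genes, and below them for 0. These 4 were under a mean of 1. Dcx had about 2, 2 and 0 reads early and 3, 11 and 123 late, and Elavl4 about 3, 4 and 6 and then 6, 7 and 24. The 2 markers that reached a mean of 1, Tubb3 and Stmn2, overlapped between the groups. None of the 8 was at 0 in all 6 libraries. Map2, a dendritic protein and 1 of these 4, reached 0.116 at 48 h, and its early values were at most 0.0221. The part of these markers in the rise of the neurogenic factors was not tested.

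Neural progenitor genes had 14 tested members, 0 called, 11 positive differences and a median of 0.14. Sox3, a SoxB1 factor, stood at 1.15, 2.89 and 2.90 early and 5.32, 7.93 and 17.2 late, and its groups did not overlap (difference 1.66 ± 0.38, adjusted p = 0.116). Sox21, which counters SoxB1 factors, had late values of 29.1, 33.3 and 36.5 above early ones of 12.8, 16.8 and 24.8 (adjusted p = 0.208). Sox2 lay between 66.8 and 77.5 early and between 69.9 and 97.0 late, and Nes, the filament nestin, between 1.29 and 1.89 and between 1.33 and 2.49. Pax6 was at or under 0.0724 in every library.

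Among 14 tested genes of the Notch pathway, Hes6 rose, against 0.251% of all tested genes, and 0 fell, against 0.455%. Of the 14, 10 had a positive difference, with a median of 0.23. Late values lay above all early ones in 2 (Hes6 and Dll1), against 7.91% of all tested genes. Of the ligands, Dll1 stood at 0.527, 0.419 and 0.293 early and at 1.27, 2.00 and 3.17 late. Its groups did not overlap and its difference of 1.11 ± 0.21 just missed the threshold (adjusted p = 0.0539), while it passed with the GC trend removed (adjusted p = 0.0415), as well as on recovered reads by limma-voom (adjusted p = 0.0325). Dll3, a divergent ligand, overlapped between the groups at 0.399, 0.604 and 0.852 early and 0.841, 2.20 and 9.40 late. Jag1 ran from 1.12 to 1.5 early and from 0.758 to 2.88 late. Of the targets, Hes1 stood at 26.5, 33.2 and 18.8 early and 20.6, 20.9 and 26.1 late, and Hey1 at 4.17, 5.02 and 1.81 early and 1.19, 0.764 and 2.07 late (adjusted p = 0.839 and 0.261). Hes5 was highest at 48 h, at 5.52, and lay between 0.151 and 0.635 in the other 5 libraries.

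Both Lefty genes rose. Lefty1, a secreted antagonist and target of Nodal, stood at 1.01, 0.211 and 0.174 early and at 4.34, 4.81 and 17.6 late, from about 26, 5 and 8 reads early and 134, 162 and 959 late (difference 2.55 ± 0.44, adjusted p = 0.0432). Lefty2, its neighbour with 1 coding gene between, stood at 4.28, 2.54 and 1.04 early and 12.3, 12.5 and 25.6 late (2.32 ± 0.38, adjusted p = 0.0384). Both were lowest at 6 h and highest at 48 h, and their sequences are alike enough that reads could be counted for the wrong copy. Nodal itself stood at 7.56, 6.81 and 8.29 early and 4.26, 4.45 and 9.21 late and did not pass (adjusted p = 0.665), and its co-receptor Tdgf1 lay between 38.4 and 51.4 throughout. Gdf3, a ligand that acts with Nodal, had late values of 24.3, 40.9 and 47.4 above early ones of 20.8, 12.9 and 19.5 (adjusted p = 0.201). Of the 8 tested genes of this pathway 2 rose, against 0.251% of all tested genes, and 0 fell, with a median of 0.31. Lefty1, with an early mean of 0.467, reached the mean of 1 only through the late libraries. It had to differ, so its test is no independent support. Of the 6 primitive endoderm markers, Foxa2 alone reached a mean of 1. Its late values (0.618, 1.42 and 4.62) lay above its early ones (0.128, 0.208 and 0.143). Gata4, Gata6, Sox17, Sox7 and Dab2 went the other way, with ratios of late to early means of 0.40, 0.71, 0.41, 0.58 and 0.32. The summed value of the markers was 0.930 to 1.54 early and 1.21 to 5.31 late, and Foxa2 held 4.62 of the 5.31 at 48 h. None was at 0 in all 6 libraries, and the part of these markers in the Lefty result was not tested.

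Most formative epiblast genes had positive and most naive ones negative differences, with 1 call in all. Among 17 tested formative genes 1 rose, against 0.251% of all tested genes, and 0 fell, against 0.455%. Of the 17, 15 had a positive difference and the median was 0.43. Late values lay above all early ones in 6 and below them in 1, against 7.91% and 7.30% of all tested genes. The one that rose was Otx2, a homeobox factor of the epiblast and forebrain, at 1.6, 1.79 and 1.82 early and 4.33, 5.06 and 9.01 late (1.33 ± 0.24, adjusted p = 0.0461). Pim2, a kinase of this list, had groups that did not overlap, at 3.25, 3.79 and 7.91 against 11.4, 13.9 and 30.6 (adjusted p = 0.116), and passed with the GC trend removed (adjusted p = 0.0319). Among 27 tested naive genes 0 were called, 21 had a negative difference and the median was -0.29. Late values lay below all early ones in 8 (Tcl1, Nr0b1, Dppa2, Tfcp2l1, Mras, Tbx3, Zfp42 and Tet2) and above them in 2 (Gbx2 and Lifr), against 7.30% and 7.91% of all genes. Nr0b1, an orphan receptor of naive cells, stood at 46.3, 36.0 and 28.8 early and 22.8, 20.7 and 18.2 late (difference -0.80, adjusted p = 0.193). Klf4, a naive factor, overlapped between the groups, at 55.3, 42.6 and 64.9 early and 34.4, 24.9 and 44.5 late (adjusted p = 0.393). Pou5f1, the pluripotency factor Oct4, lay between 204 and 234 early and between 176 and 235 late.

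**Figure D4:**
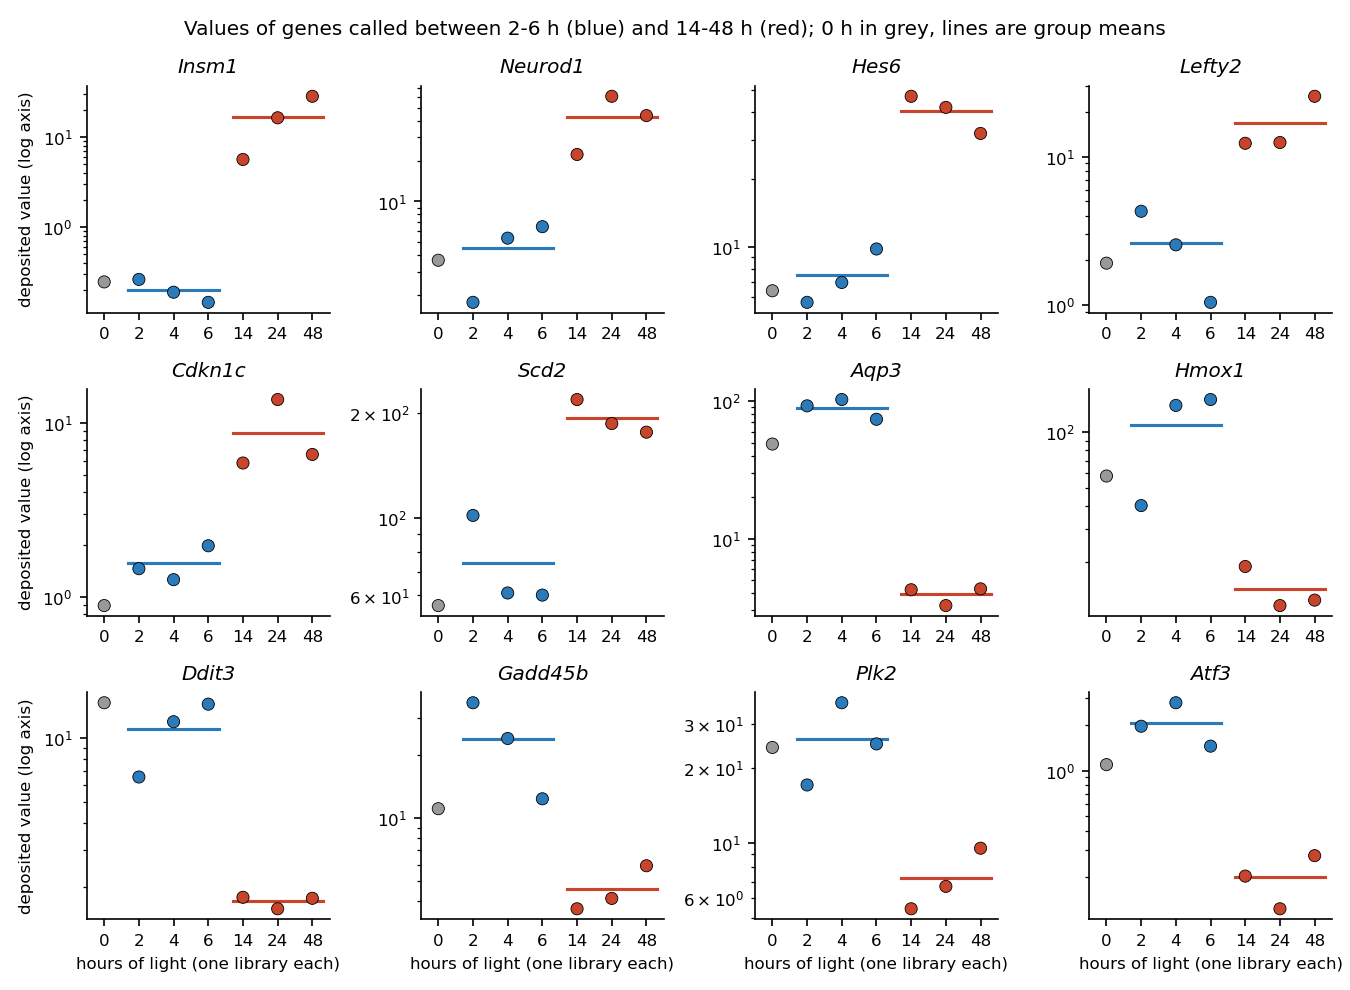
Deposited values (log axis) of 12 called genes in each library by hours of light; grey points are 0 h, blue points 2, 4 and 6 h, red points 14, 24 and 48 h, and lines are the means of the 3 libraries of a group. In each panel the 3 red points lie on 1 side of all 3 blue points, from Insm1 with late values of 5.6 to 28.2 to Atf3 with late values of 0.123 to 0.276.

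Cdkn1c and Scd2 also rose. Cdkn1c, the cyclin-dependent kinase inhibitor p57, stood at 1.45, 1.26 and 1.97 early and 5.88, 13.6 and 6.58 late (1.84 ± 0.28, adjusted p = 0.0334, and 0.0521 with the GC trend removed). It was 1 of 11 tested genes of G1 control and the one that was called, against 0.251% of all tested genes. Ccnd1, cyclin D1, stood at 12.3, 6.82 and 6.31 early and 8.82, 34.6 and 48.7 late and did not pass (adjusted p = 0.324). Scd2, a stearoyl-CoA desaturase, was abundant, with about 5678 to 37557 reads. It stood at 102, 61.0 and 60.2 early and 218, 186 and 176 late, a rise of 1.41 ± 0.24 (adjusted p = 0.0432). Of 31 tested genes of cholesterol and fatty acid synthesis Scd2 was the one called, against 0.251% of all tested genes. Of the 31, 30 had a positive difference and the median was 0.48. Late values lay above all early ones in 14 and below in 0, against 7.91% and 7.30% of all tested genes. Dhcr7, the last enzyme of cholesterol synthesis, stood at 2.52, 2.18 and 3.83 early and 6.73, 6.34 and 8.58 late (1.11 ± 0.21, adjusted p = 0.0533) and passed with the GC trend removed (adjusted p = 0.0142). The transcription factor of this pathway, Srebf2, stood at 4.26, 3.37 and 4.86 early and 8.26, 5.25 and 7.75 late (adjusted p = 0.295).

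The other genes that rose are mostly at low levels, with a mean under 5 in all but Sox12, and those under 5 were added here once their values were known. They are Uncx, a homeobox factor (0.123, 0.199 and 0.427 early; 1.95, 2.06 and 4.54 late), Sox12, a SoxC factor (5.33, 3.91 and 4.86; 12.4, 10.2 and 17.5), and Fzd1, a Wnt receptor (0.360, 0.551 and 0.851; 2.21, 2.48 and 3.89). Lmo4, a LIM-only cofactor, and Naprt, an enzyme of NAD synthesis, rose by 0.93 and 1.20, and Naprt overlaps Eef1d. The remaining ones were Armcx2, which stood between 0.775 and 0.863 early and between 2.14 and 2.77 late, and the predicted gene Gm1673. All of these genes but Sox12 had an early mean under 1 and reached that minimum only through the late libraries. Those had to differ, so their tests are no independent support. Sox12, Fzd1, Uncx and Naprt were highest at 48 h, as were 11 of the 16 genes that rose, while Lmo4 was highest at 14 h.

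Aqp3, a channel for water and glycerol, fell most. It stood at 92.5, 103 and 73.8 at 2, 4 and 6 h and at 4.25, 3.26 and 4.31 at 14, 24 and 48 h, from about 3856, 3961 and 5527 early and 212, 178 and 381 late reads. The early values spanned 73.8 to 103, the late ones 3.26 to 4.31, and the early mean was 22.8 times the late mean. The difference was -4.19 ± 0.21 (log2, SE; adjusted p = 3.06e-05 by limma). Aqp3 was called under all 18 alternatives, the highest adjusted p among them being 0.00782, and it was the only call kept without the 4 h library and without a filter on low values. At 0 h it stood at 48.8, below every early and above every late library. Its promoter is shown as that of the most changed gene: the 250 bases before the RefSeq start in GRCm38.p6, chr4:41098184-41098433 (minus strand), with the TATA box letters TATAAA, 29 bases before the start, in capitals.
Aqp3: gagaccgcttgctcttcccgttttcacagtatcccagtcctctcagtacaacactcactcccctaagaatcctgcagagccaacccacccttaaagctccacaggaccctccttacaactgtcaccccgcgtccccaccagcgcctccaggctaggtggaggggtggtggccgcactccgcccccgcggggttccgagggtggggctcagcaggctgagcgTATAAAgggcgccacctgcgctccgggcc
TATAAA was present, on either strand of the window of 300 bases, in 4 of the 18 promoters found for genes that fell (Aqp3, Fos, Gadd45b and Phlda2), in 2 of 10 for genes that rose (Fzd1 and Otx2) and in 7.37% of tested genes.

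Genes of antioxidant defence were among those that fell, led by Hmox1, the heme oxygenase induced by Nrf2. Hmox1 stood at 40.2, 139 and 150 early and at 18.9, 11.7 and 12.5 late (-2.67 ± 0.45, adjusted p = 0.0432). Its early values spread over 110 ± 60.4 (SD, n = 3), and the 2 h value was nearest to the late ones. Gclc, which makes glutathione precursors, fell from 3.96, 6.77 and 4.75 to 2.10, 1.69 and 1.43 (adjusted p = 0.0461). Of 18 tested genes of the Nrf2 and oxidative stress list these 2 fell, against 0.455% of all tested genes, 0 rose, 12 had a negative difference and the median was -0.43. Late values lay below all early ones in 6, against 7.30% of all tested genes, among them Srxn1, sulfiredoxin (13.7, 34.8 and 35.4 early; 12.1, 7.45 and 7.97 late; adjusted p = 0.142), and Gclm, the partner of Gclc (adjusted p = 0.213). Nqo1 and Slc7a11, further Nrf2 targets, overlapped between the groups, at 4.51 to 16.6 against 5.97 to 7.24 and at 0.741 to 1.12 against 0.863 to 1.57. Prdx6, a peroxiredoxin outside this list, fell from 62.7, 82.4 and 84.1 to 35.5, 34.4 and 37.0 (adjusted p = 0.0492).

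The stress-response transcription factors Ddit3, Atf3 and Fos fell as well. Ddit3, the pro-apoptotic factor CHOP, stood at 6.57, 11.9 and 14.4 early and at 1.80, 1.59 and 1.78 late (-2.07 ± 0.26, adjusted p = 0.0170); it overlaps Mars, and reads could not be recovered for it. The late values were nearly equal, and the 0 h value of 14.6 was higher than any of the 6. Atf3 stood at 1.95, 2.79 and 1.45 early and 0.202, 0.123 and 0.276 late (-1.33 ± 0.17, adjusted p = 0.0190), and Fos, the immediate early factor, at 2.18, 3.46 and 3.32 and then 0.783, 0.477 and 0.882 (adjusted p = 0.0334). Atf3 and Fos had late means under 1 and reached the mean of 1 only through the early libraries. Both therefore had to differ, and their tests are no independent support. Atf3 and Fos were the calls among 16 tested immediate early genes, of which 12 had a negative difference and the median was -0.23. Late values lay below all early ones in 3, against 7.30% of all tested genes. Besides Atf3 and Fos this was Nr4a1, an orphan receptor, at 9.30, 6.32 and 5.89 early and 2.74, 3.05 and 5.73 late (adjusted p = 0.300). Dusp1, a phosphatase, and Ccn1, a matrix protein, had differences of -0.86 and -0.70 with overlapping groups. Other members had positive differences: Egr1 stood at 2.42, 1.25 and 1.62 early and 6.45, 2.60 and 1.52 late, and Junb at 6.28, 4.79 and 7.03 and then 15.3, 5.90 and 9.80 (adjusted p = 0.595 and 0.499). Among 28 tested genes of the Atf4 and endoplasmic reticulum list Ddit3 was the one that fell, against 0.455% of all tested genes, and the median was -0.07. Late values lay below all early ones in 4 (Ddit3, Cebpb, Trib3 and Sesn2) and above them in 5 (Sars, Sdf2l1, Psat1, Pdia4 and Xbp1). The shares of all tested genes were 7.30% and 7.91%. Atf4 itself lay between 128 and 173 early and between 114 and 128 late.

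Plk2, from the list of p53 targets, and Gadd45b, from that of DNA methylation and demethylation, fell. Plk2, a polo-like kinase raised by p53, stood at 17.1, 36.3 and 24.9 early and 5.46, 6.70 and 9.52 late (-1.69 ± 0.29, adjusted p = 0.0457). It was the one call among 19 tested p53 targets, against 0.455% of all tested genes. Of the 19, 18 had a negative difference and the median was -0.56. Late values lay below all early ones in 6, against 7.30% of all tested genes. Mdm2, the ligase that degrades p53, stood at 11, 22.1 and 11 early and 5.66, 5.58 and 4.00 late (-1.31, adjusted p = 0.0884, and 0.0378 with the GC trend removed). Ddit4l, an inhibitor of mTOR signalling, stood at 10.7, 36.9 and 18.2 early and 3.32, 5.35 and 5.41 late (-1.87, adjusted p = 0.0789). With the GC trend removed 5 of the 19 fell, against 1.27% of all tested genes. Cdkn1a, the p53 target p21, differed from these: it stood at 9.39, 9.21 and 9.35 early and at 5.14, 6.78 and 18.6 late (adjusted p = 0.963). Gadd45b, a stress-inducible gene, stood at 35.4, 23.9 and 12.3 early and 3.69, 4.14 and 5.92 late (-2.06 ± 0.34, adjusted p = 0.0427), while Gadd45a, at 14.0 to 19.5 early and 7.22 to 13.7 late, did not pass (adjusted p = 0.311).

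**Figure D5:**
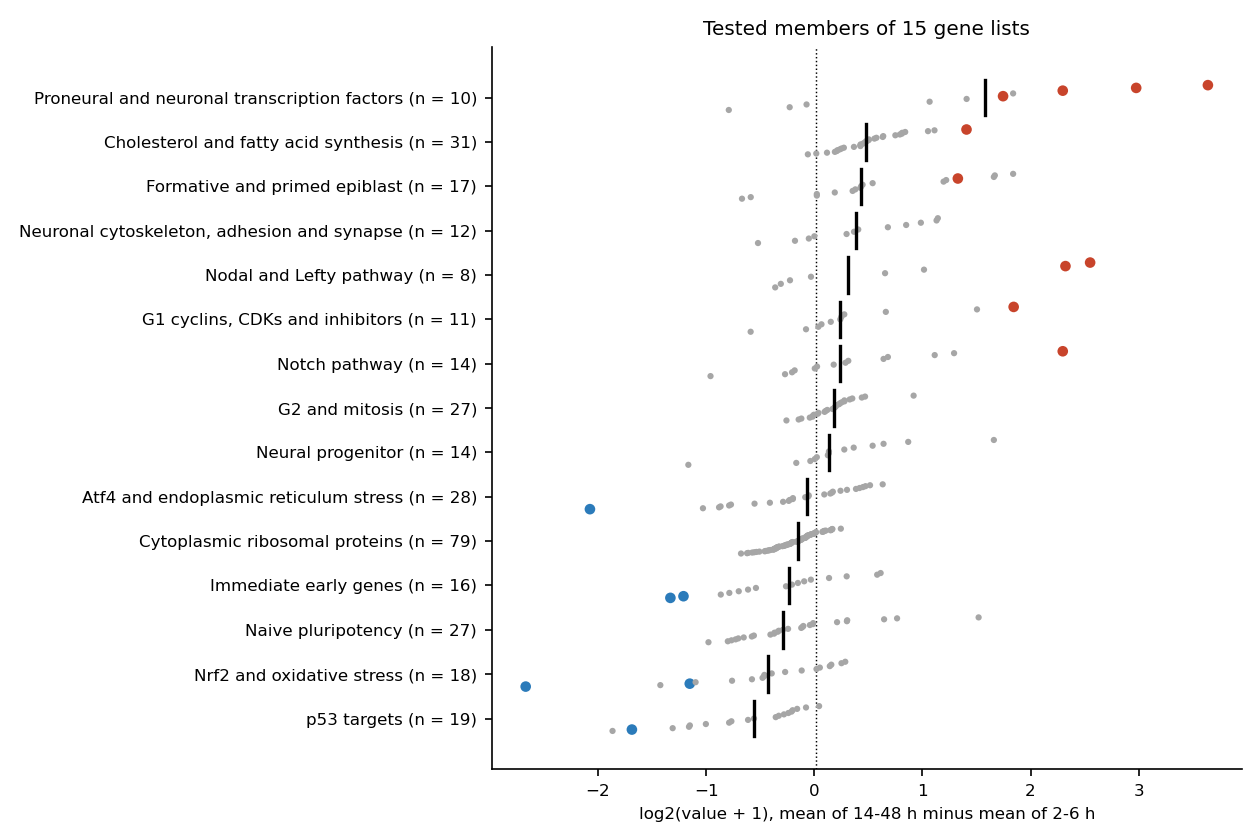
Differences between the late and early means of log2(value + 1) for the tested members of 15 gene lists, with the number of tested members beside each name; large red or blue points are called genes, small grey points are not called, black bars are list medians and the dotted line is the median of all tested genes (0.016). Medians run from 1.58 for proneural factors to -0.56 for p53 targets, and most members of every list are not called.

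Signalling, transport and developmental genes made up the rest of those that fell, and those with a mean under 5 and in no list were added once their values were known. Dusp9, a phosphatase of ERK kinases, stood at 12.7, 11.2 and 13.2 early and 4.18, 2.42 and 3.28 late (-1.65 ± 0.20, adjusted p = 0.0170, 15 of 18 alternatives). Phlda2, an imprinted gene that restrains placental growth, stood at 35.6, 39.3 and 46.3 early and 11, 16.6 and 18.5 late (adjusted p = 0.0432). Slc38a4, an amino acid transporter, stood at 5.33, 5.6 and 4.51 early and 1.69, 0.938 and 0.603 late (-1.59 ± 0.21, adjusted p = 0.0190). Fabp3, a fatty acid carrier that overlaps Zcchc17, fell by 1.68. Mylpf, a myosin light chain of fast muscle, fell from 70.6, 66.4 and 61.0 to 30.6, 34.4 and 31.3 (adjusted p = 0.0461). Homeobox and patterning factors were at low levels: Hoxb9 stood at 3.42, 3.24 and 2.26 early and 0.960, 0.859 and 0.906 late, and Msx2, a BMP target, at 1.69, 1.90 and 1.46 and then 0.521, 0.324 and 0.367. Mesp2, Sp6 and Gli1, the Hedgehog target, fell by 1.17, 0.90 and 0.97. S100a13, a calcium-binding protein, stood at 2.85, 3.51 and 2.30 early and 0.346, 0.396 and 0.244 late (adjusted p = 0.00857, 15 of 17 alternatives). Arl4d, Lrrc15, Aard, Mreg, Amigo2, Adgre5 and S100a1 also fell, with differences from -1.44 to -0.71. Hoxb9, Msx2, Mesp2, Sp6, S100a13, Lrrc15, Amigo2, Adgre5 and S100a1 had late means under 1 and reached that minimum only through the early libraries. They had to differ, so their tests are no independent support.

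The called genes shared features that the grouping did not use. Those that rose had a median span of 4.21 kb and those that fell 5.71 kb, where all tested genes had 12.6 kb. The values act like reads per span, so span enters the minimum of 1 and the weight of the added 1. The part of span in the calls was not tested. The median transcript GC content of the genes that rose and fell was 58.3% and 52.8%, against 51.4%. The libraries also differed with GC content, as given above, and its part in single calls was measured by removing the trend, which lost Cdkn1c and Sp6. Another coding gene overlapped 2 of the 16, 5 of the 29 and 27.0% of all tested genes. Among the 29 genes that fell, 17 were highest at 4 h, 6 at 2 h and 6 at 6 h, and the lowest library was that of 24 h in 14. Some called genes are neighbours in the genome. S100a1 and S100a13 are transcribed away from each other from start sites 105 bases apart in the RefSeq annotation, and both fell. Amigo2 and Slc38a4 are adjacent coding genes and both fell, while Cdkn1c, which rose, and Phlda2, which fell, are imprinted genes with 1 coding gene between them.

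The library of 0 h, which entered the choice of each gene's row but not the test, sat apart from both groups for many of them. For all 16 genes that rose, the 0 h value lay below every late library: it was within the early range in 9, below it in 4 and above it in 3. For the 29 genes that fell, the 0 h value lay above every late library in 27, but it was below every early library in 17, within the early range in 9 and above it in 3. Gli1 stood at 0.511 at 0 h, 3.14 to 3.36 early and 0.911 to 1.49 late, so that its 0 h value was the lowest of the 7. Phlda2 stood at 12.2 at 0 h, inside its late range of 11 to 18.5. With the 0 h library as a group of its own in the fit, 39 of the 45 calls were kept.

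Genes under the mean value of 1 were tested on reads recovered from the values. A limma-voom fit of 12529 genes with at least 10 reads in at least 3 libraries called 105 higher (0.838%) and 60 lower (0.479%), and kept 42 of the 44 called genes that have a span. Of these calls, 85 higher and 24 lower had a mean under 1. Of the 85, 26 had under 10 reads in each early library, and of the 24, 3 had under 10 in each late library: these passed the filter only through the group where they are high, so they had to differ. Gcg, Egflam, Gnat3 and Stk33 are among the 26, Krtdap and Kcnh4 are among the 3, and the tests of all these are no independent support. The largest differences upward among the 85 were those of Gcg, the precursor of glucagon, Egflam, Gnat3, Stk33 and Ebf3. Gcg had about 2, 0 and 2 reads early and 43, 128 and 134 late (limma-voom adjusted p = 0.0105). Ebf3, a helix-loop-helix factor of postmitotic neurons, had about 3, 6 and 11 reads early and 79, 234 and 710 late (adjusted p = 0.0228), and Egflam, an extracellular matrix protein, about 0, 3 and 9 and then 50, 108 and 439 (adjusted p = 0.0285). The largest differences downward were those of Krtdap, Fosl1, Kcnh4, Myo1f and Cd37. Fosl1, a Fos-family factor, had about 32, 84 and 154 reads early and 15, 4 and 5 late (adjusted p = 0.0263); it overlaps Ccdc85b, and Cd37 overlaps Tead2. Myo1f, a myosin of blood cells, had about 217, 141 and 139 reads early and 18, 14 and 18 late (adjusted p = 0.0166). Early reads of the genes that rose are few, so the sizes of these differences are imprecise.

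Large housekeeping groups held no call. Of 79 ribosomal protein genes, all tested, 64 had a negative difference with a median of -0.15, and late values lay below all early ones in 16 and above in 0, against 7.30% and 7.91% of all tested genes; processed copies of these genes could share their reads. Of 27 tested genes of G2 and mitosis, 20 had a positive difference with a median of 0.18; Plk1, the mitotic kinase, stood at 12.7, 7.73 and 15.8 early and 22.3, 19.8 and 27.0 late (adjusted p = 0.207). Genes of DNA replication (29 tested, median 0.03), nuclear-encoded oxidative phosphorylation (52, median 0.01), heat shock (20, median -0.06) and glycolysis and hypoxia (17, median -0.02) also had 0 calls in both directions by limma. Hsp90aa1, an abundant chaperone, had late values of 484, 639 and 304 below early ones of 699, 806 and 643, and did not pass (adjusted p = 0.402). Markers of other cell types had sums that overlapped between the groups: mesoderm markers summed to 1.6 to 1.78 early and 1.12 to 1.70 late, trophoblast markers to 3.31 to 6.43 and 2.32 to 6.17, glial markers to 0.621 to 1.03 and 0.444 to 0.785, and fibroblast markers to 0.862 to 1.48 and 0.426 to 3.25. Of the 6 fibroblast markers 2, Col1a2 and Postn, had late values above all early ones, against 7.91% of all tested genes. Col1a2, a collagen chain, had about 3, 3 and 11 reads early and 29, 315 and 1257 late (limma-voom adjusted p = 0.124), and Postn had at most 7 reads in a library.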

How the data were processed

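Messenger RNA was sequenced at 0, 2, 4, 6, 14, 24 and 48 h of light, with 1 library per time. Per the labels' protocols, the kits were RNeasy for RNA and Lexogen SENSE for libraries. Per the submitters' processing notes, reads were aligned to mm9 with Bowtie2. No source used here gives the version, the counting, any use of strand or the unit.

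The authors deposited 1 value per RefSeq transcript and library. These act like read densities over the genomic span, corrected for library size: multiplied by span and a library factor, between 79.5% and 81.3% of low values came within 0.1 of a whole read, where chance gives 20%. Recovered reads are approximate, because spans came from GRCm38. Of 30673 rows, 26245 with a gene symbol were used, and each of 20294 genes kept its row of highest mean. The table's values gave 6372 genes with a mean of at least 1; another 11281 genes above 0 lay under it.

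Groups were compared with limma 3.58.1 (R 4.3.3) on log2(value + 1), with a mean-variance trend, 4 residual degrees of freedom and Benjamini-Hochberg adjustment over all tested genes. A difference is the mean of the 3 late minus that of the 3 early log2 values, which understates changes of low genes. The GC trend was a spline with 5 degrees of freedom per library, and 6272 tested genes had a GC value; the others were left as they were. The fits were tested on simulated data.

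Alternatives were other pseudocounts, filters, normalizations, reads in limma-voom, another transcript row, the 0 h library as a group of its own, and each library left out. The combination of limma-voom with GC removal was chosen after seeing the data. The rule for named genes took Pou3f2, in each direction up to 15 called genes whose mean reached 5 (filled to 12 with genes of separate groups), up to 5 members of each list described, the cell type markers, and 5 genes per direction called on reads with a mean under 1. Called genes outside this rule were added after their values were seen, and a few genes are not reported here. The groups, the 39 gene lists and the rule were chosen with earlier results of these data known. Sequences are from RefSeq (GRCm38.p6), whose promoter table held 10 of the 16 and 18 of the 29 called genes.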

Additional observations from a re-analysis of the deposited data

How the results depend on the processing

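The counts of genes that rose and fell, 16 and 29, were 2 and 8 with a pseudocount of 5, 8 and 12 with a mean of at least 5, 2 and 2 with no filter on low values, 41 and 81 with the GC trend removed, 105 and 60 by limma-voom on recovered reads, and 214 and 171 there with the GC trend removed, a combination chosen after seeing the data. Leaving out 1 library at a time gave 0 to 22 higher and 1 to 41 lower. The counts of genes whose groups do not overlap and whose difference is at least 1 (log2) were 44 and 57. They were 504 and 465 with no minimum difference and 78 and 108 with a pseudocount of 0.1. The difference of Pou3f2, -0.70, ran from -1.60 to 0.34 with 1 library left out, the latter without that of 48 h. The cause of these shifts was not tested. Of 779 values of called genes under alternatives, 493 kept their call, 286 lost it and 0 reversed. The groups of called genes do not overlap, so many of the alternatives, such as leaving out a library, could not reverse a direction. Of 576 list medians, 40 had the opposite sign, 1 of them from a median of at least 0.2. No paired analysis was possible because each library is another time, and replicate numbers pair no samples. Depth limits the genes with few early reads, such as Neurog1 and Insm1.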
